A study of Mus musculus with 6 samples.

Results

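The genes described here are 51 protein-coding genes of antioxidant defence and glutathione metabolism, out of 22913 genes in the count table. The rule that chose them uses gene names: all alpha, kappa, mu, omega, pi and theta glutathione S-transferases, the peroxiredoxins 1 to 6 and the glutathione peroxidases 1 to 8 in the table, and 21 single genes from the transcription factor gene Nfe2l2 to the superoxide dismutases. Of these, 45 had enough reads to be tested and 6 did not. Polyadenylated RNA was sequenced from the mouse line HL-1, which descends from atrial cardiomyocytes, with 3 libraries from cells that received an HSPA1A overexpression plasmid and 3 from cells with a control plasmid. The labels give the same protocol for both groups: transfection with a Lipofectamine reagent, in medium with serum, penicillin and streptomycin, and collection 48 h later. HSPA1A encodes the inducible HSP70 chaperone, and the labels name the human gene without stating the plasmid's promoter. Because transfection is transient, a library averages cells that took up the plasmid and cells that did not.

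NRF2, encoded by Nfe2l2, is the main transcription factor of the antioxidant response. In unstressed cells KEAP1 holds it and hands it over to ubiquitin ligase CUL3 for degradation. When reactive chemicals modify KEAP1, NRF2 accumulates, pairs with a small MAF protein and binds antioxidant response elements at genes for glutathione synthesis, thioredoxin, NADPH supply and detoxification. NRF2 is regulated mostly at the protein level, so the mRNA of its targets is the usual readout of its activity.

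The libraries held between 23849656 and 26897086 reads in genes. The labels do not say whether replicates were separate cultures, so the spread behind each p-value may be only technical. HSPA1A replicate 2 stood apart from the other HSPA1A libraries: on the first principal component it lay at 15.1, HSPA1A replicates 1 and 3 at -15.9 and -18.3, and the control libraries between 4.33 and 8.27. The noncoding transcript Yam1 took 2.70%, 1.58% and 2.53% of reads in HSPA1A replicates 1 to 3 and 1.86%, 1.18% and 1.23% in control replicates 1 to 3, and its part in the results was not tested. As the labels name a human gene and reads were counted on mouse genes, the table holds no direct check of the plasmid; mouse Hspa1a had 17, 20 and 11 reads in the HSPA1A libraries and 10, 17 and 11 in the control libraries. Of 16 heart muscle markers 13 were listed in the counts, while Nppa, Myh6 and Myl7 were not. Of the 13, 6 averaged under 1 CPM (reads of the gene scaled to a common library size), among them the sarcomere genes Tnni3, Actc1 and Actn2. Another sarcomere gene, Tnnt2, averaged 42.0 ± 11.6 CPM with the HSPA1A plasmid, against 39.1 ± 4.48 CPM with the control plasmid (SD over 3 libraries each). In the same order Gata4 averaged 32.8 and 32.3 CPM and Gja1 123 and 133 CPM. Group means of Myl4, Mef2c and Nkx2-5 lay between 1.11 and 3.76 CPM. Desmin (Des) averaged 583 ± 19.9 CPM with the HSPA1A plasmid, against 645 ± 16.8 CPM with the control plasmid (SD over 3 libraries each). Of 8 fibroblast markers 3 averaged under 1 CPM, while the collagen gene Col3a1 averaged 453 ± 68.8 CPM with the HSPA1A plasmid, against 461 ± 9.85 CPM with the control plasmid (SD over 3 libraries each). The summed muscle markers ranged from 757 to 815 CPM in HSPA1A and from 852 to 866 CPM in control libraries. Des made up most of that sum in every library. The summed fibroblast markers ranged from 787 to 928 CPM in HSPA1A and from 851 to 887 CPM in control libraries. The part of these markers in the results was not tested. White blood cell markers summed to at most 7.57 CPM and endothelial markers to at most 0.702 CPM in any library, and the pan-leukocyte marker Ptprc reached at most 1 read per library. In bulk RNA, fewer cells expressing a gene and less RNA per cell cannot be told apart.

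To show what the promoters of these genes look like, windows of RefSeq on GRCm38.p6, from 250 bases before to 50 after the transcription start, were searched for the element core TGACNNNGC on both strands. Of the 51 genes 44 had a window, and 12 of them, 27.3%, held the core, against 14.0% of the 27025 genes with windows. A second form, TGANTCAGC, begins with an AP-1 site and matches the core only where its N is C. It was searched after the first result had been seen. It was found in Srxn1, Prdx1, Me1, Gstp1 and Gstp2, 11.4% of the 44 genes, against 1.37% of all genes. The forms overlap, since TGACTCAGC belongs to both. Srxn1 and Prdx1 are shown because both hold the second form and yet differed in how they stood in the 6 libraries. Gclm is shown for the first form and Gsta1 as a gene with neither in its window. Capitals mark matches to either form, and the sequences run 5′ to 3′ at chr2:152105274-152105573 on the plus strand (Srxn1), chr4:116685349-116685648 on the plus strand (Prdx1), chr3:122245307-122245606 on the plus strand (Gclm) and chr9:78230419-78230718 on the plus strand (Gsta1).
Srxn1: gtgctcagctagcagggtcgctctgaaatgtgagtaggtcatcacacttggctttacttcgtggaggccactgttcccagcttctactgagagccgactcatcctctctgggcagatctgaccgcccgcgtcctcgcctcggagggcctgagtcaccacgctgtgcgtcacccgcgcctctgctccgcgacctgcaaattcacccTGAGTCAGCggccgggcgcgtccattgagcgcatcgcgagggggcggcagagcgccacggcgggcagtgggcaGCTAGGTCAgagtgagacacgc
Prdx1: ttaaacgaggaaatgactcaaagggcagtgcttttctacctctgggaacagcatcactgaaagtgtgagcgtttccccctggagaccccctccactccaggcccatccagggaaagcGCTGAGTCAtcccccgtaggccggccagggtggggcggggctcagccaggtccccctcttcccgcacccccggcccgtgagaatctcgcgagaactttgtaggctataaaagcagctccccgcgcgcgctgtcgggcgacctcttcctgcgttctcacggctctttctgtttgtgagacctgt
Gclm: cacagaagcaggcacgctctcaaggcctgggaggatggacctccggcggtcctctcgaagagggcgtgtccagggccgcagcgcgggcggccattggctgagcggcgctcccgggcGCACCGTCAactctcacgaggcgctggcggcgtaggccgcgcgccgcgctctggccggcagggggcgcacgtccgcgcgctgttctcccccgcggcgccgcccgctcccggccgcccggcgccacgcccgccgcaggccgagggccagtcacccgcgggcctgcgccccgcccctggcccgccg
Gsta1: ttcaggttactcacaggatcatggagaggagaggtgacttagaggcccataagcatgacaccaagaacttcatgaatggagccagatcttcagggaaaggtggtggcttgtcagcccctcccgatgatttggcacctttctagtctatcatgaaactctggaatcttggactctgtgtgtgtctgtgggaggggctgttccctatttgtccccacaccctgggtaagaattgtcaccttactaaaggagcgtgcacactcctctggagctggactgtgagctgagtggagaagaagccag
In Srxn1 the second form began 45 bases before the start and a match to the first lay 28 bases after it. The second form lay in Prdx1 133 bases before the start on the other strand, and the first form lay in Gclm 134 bases before it, also on the other strand. A match is a description of letters, and elements farther away were not searched.

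Most of these genes were well expressed in HL-1 cells. Levels between genes are compared here as FPKM as deposited, a unit that is scaled for gene length and depth. Averaged over the 6 libraries, the highest were the disulfide reductant gene Txn1 (thioredoxin, 531 FPKM), Gpx4 (496 FPKM), whose enzyme reduces lipid hydroperoxides in membranes, and the omega-class transferase gene Gsto1 (448 FPKM). They were followed by the pi-class transferase gene Gstp1 (341 FPKM), Sod1 (324 FPKM), the cytosolic copper-zinc superoxide dismutase gene, and Prdx1 (282 FPKM), a cytosolic peroxidase gene. Among the lowest was the extracellular dismutase gene Sod3, which had 0.495 FPKM and made up little of its class, in which Sod1 held 95.4% of the summed FPKM. Within the transferases Gsto1 held 32.2% of the summed FPKM. The mitochondrial dismutase gene Sod2, at 14.96 FPKM, was lower than the cytosolic Sod1. Likewise the mitochondrial thioredoxin reductase gene Txnrd2, at 10.1 FPKM, was lower than the cytosolic Txnrd1, at 139 FPKM. Of the glutathione synthesis and recycling genes Gss was the highest, at 22.5 ± 1.96 FPKM with the HSPA1A plasmid, against 22.8 ± 1.57 FPKM with the control plasmid (SD over 3 libraries each). Nfe2l2 at 95.4 FPKM stood far above its inhibitor Keap1 at 6.92 FPKM.

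**Figure D1:**
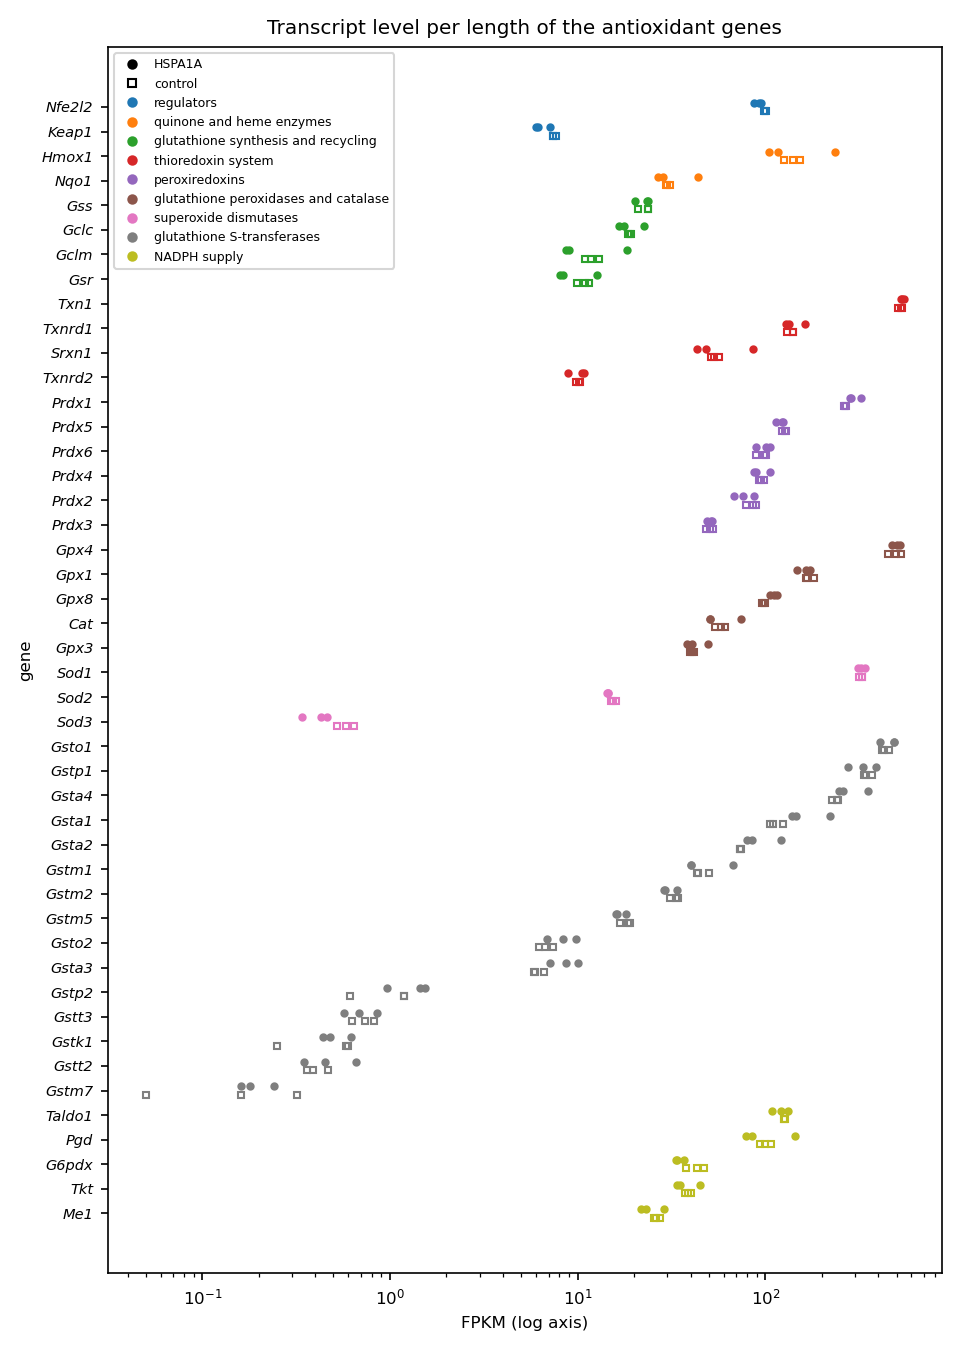
FPKM of 46 antioxidant and glutathione genes with a mean of at least 0.1 FPKM, on a log axis, with 1 point per library (filled circles, 3 HSPA1A libraries; open squares, 3 control libraries) and colours for the classes. Txn1, Gpx4 and Gsto1 lie at the top of the scale, while Sod3 and the transferases Gstp2, Gstt3, Gstk1, Gstt2 and Gstm7 lie near or under 1 FPKM.

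The 6 genes that were not tested were all transferases, namely Gstm3, Gstm4, Gstm6, Gstm7, Gstt1 and Gstt4, with at most 13 reads in any library. Among the tested ones Gstk1, Gstt2, Gstt3 and Gstp2 averaged about 1 FPKM or less, so small differences in them were not detectable at this depth.

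The comparison asks whether the mRNA of these genes differed between the plasmids. In the quasi-likelihood test of edgeR, with p-values adjusted after Benjamini and Hochberg over the 12827 genes tested, 0 of the 45 passed an adjusted p of 0.05 in either direction, beside 0.0234% of all tested genes called higher and 0.156% called lower. At an unadjusted p under 0.05 there were 9, or 20.0% of the 45, against 8.59% of all tested genes. DESeq2 called 3 of the 45 higher, Gpx8, Gsta2 and Gsta3, beside 0.24% of all genes it tested, and 0 lower, beside 0.341%, and it gave no adjusted p for 5 of the 45. Without the filter for low counts, edgeR called 5 of the 51 higher, Gsta1, Gsta2, Gsta3, Gsta4 and Gpx8, beside 0.41% of all genes. It called 1 lower, G6pdx, beside 0.484%. In that fit SE values hardly followed a gene's own spread between replicates. They were 0.062 for Hmox1 and 0.066 for Gclm, against 0.23 and 0.22 with the filter. limma-voom called 0, with 10 at an unadjusted p under 0.05, beside 0.164% of all genes in either direction. Fits by edgeR with DESeq2 size factors, library totals, a filter at 5 CPM or a replicate block also called 0, beside 0.14%, 0.148%, 0.174% and 0.125% of all genes. So did limma-trend on FPKM, beside 0.117% with either pseudocount and 0.143% with a minimum of 1 FPKM. Log2 fold changes ran from -0.44 ± 0.20 for Sod3 to 0.62 ± 0.13 (SE) for Gsta1, 30 of 45 were positive, and 25 were under 0.1 in size. Their median was 0.064, against 0.0029 over all tested genes.

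That median covered libraries that did not move alike. Against the control mean, the median of the 45 genes was 0.16 (log2) in HSPA1A replicate 2, against 0.014 in replicate 1 and -0.060 in replicate 3, while the median over all tested genes lay between 0.0032 and 0.0049 in these libraries. The standard deviation of log2 CPM within the HSPA1A group had a median of 0.17 over the 45 genes, beside 0.12 over all tested genes. Within the control group it was 0.073 for both. HSPA1A replicate 2 was the highest of the 6 libraries for 26 of the 45 genes (57.8%), beside 22.3% of all tested genes.

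**Figure D2:**
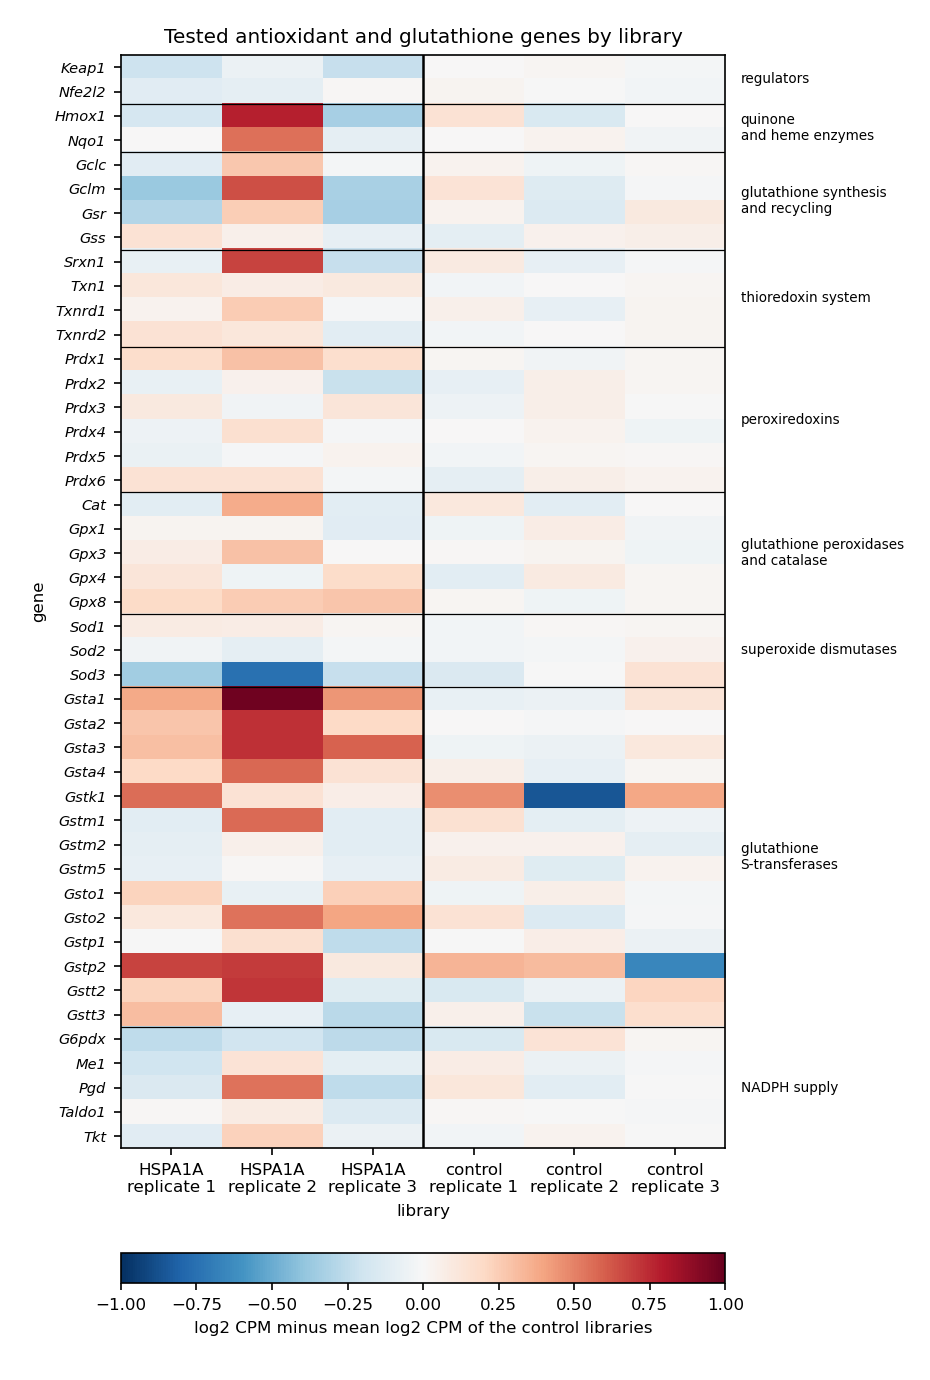
Level of each of the 45 tested genes in each library, as log2 CPM minus the mean log2 CPM of the 3 control libraries, from blue (lower) to red (higher), with genes in rows grouped by class. The HSPA1A replicate 2 column is red for Hmox1, Gclm, Srxn1, Pgd and Gstm1, where HSPA1A replicates 1 and 3 are pale or blue, and the alpha-class transferases Gsta1 to Gsta4 are red in all 3 HSPA1A columns.

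Values below are CPM scaled by TMM, given for replicates 1 to 3 of each group in that order. The regulators themselves showed little movement. Nfe2l2 stood at 241, 244 and 262 CPM in HSPA1A libraries, against 266, 259 and 256 CPM in control libraries. These ranges overlapped in CPM but not in FPKM, where every HSPA1A library was below every control. The log2 fold change from counts was -0.06 ± 0.05 (SE, 95% interval -0.18 to 0.05, adjusted p = 0.788 by edgeR). Keap1, the gene of the NRF2 inhibitor, stood at 30.5, 33.8 and 30.0 CPM in HSPA1A libraries, against 35.2, 35.7 and 34.7 CPM in control libraries. All 3 HSPA1A libraries were lower than any control, by a small amount that did not pass the test (log2 fold change -0.16 ± 0.06, SE; adjusted p = 0.528 by edgeR). Of all tested genes 7.17% had the HSPA1A libraries below all controls. Keap1 overlaps Gm16754 on the other strand, and although the library kit was stranded, the counting mode is unstated.

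The inducible enzymes that are most used as NRF2 readouts stood well higher in HSPA1A replicate 2 than in HSPA1A replicates 1 and 3. Hmox1, whose enzyme breaks down heme, stood at 210.5, 404 and 188 CPM in HSPA1A libraries, against 262, 213 and 237 CPM in control libraries. HSPA1A replicate 2 was the highest of all libraries, 1.71 times the control mean, and HSPA1A replicates 1 and 3 were the lowest. The group means were 268 ± 119 CPM with the HSPA1A plasmid, against 237 ± 24.4 CPM with the control plasmid (SD over 3 libraries each), with a log2 fold change of 0.18 ± 0.23 (SE) that did not pass the test (adjusted p = 0.861 by edgeR). Nqo1, which encodes a quinone reductase, stood at 49.6, 72.6 and 46.4 CPM in HSPA1A libraries, against 49.5, 50.7 and 48.3 CPM in control libraries. Its HSPA1A replicate 2 was 1.47 times the control mean and the other HSPA1A libraries were close to the controls (log2 fold change 0.19 ± 0.14, SE; adjusted p = 0.745 by edgeR).

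Glutathione synthesis followed the same layout in part. Gclm, the modifier subunit gene of the rate-limiting glutamate-cysteine ligase, stood at 54.4, 109.7 and 56.2 CPM in HSPA1A libraries, against 77.3, 64.1 and 69.7 CPM in control libraries. HSPA1A replicate 2 was 1.56 times the control mean, and both other HSPA1A libraries lay below every control (log2 fold change 0.06 ± 0.22, SE; adjusted p = 0.948 by edgeR). The sign of its log2 fold change was negative in 6 of 16 alternatives. Gclc, the catalytic subunit gene of the same ligase, stood at 63.4, 82.6 and 67.8 CPM in HSPA1A libraries, against 70.3, 66.5 and 69.1 CPM in control libraries, a narrower spread with the same library on top (adjusted p = 0.887 by edgeR). Gsr, the glutathione reductase gene, which returns oxidised glutathione to its reduced form, stood at 24.8, 36.0 and 24.1 CPM in HSPA1A libraries, against 31.2, 27.6 and 32.5 CPM in control libraries. Here too HSPA1A replicate 2 was highest and replicates 1 and 3 lowest (adjusted p = 0.868 by edgeR). Gss, which encodes the second enzyme of synthesis, stood at 52.2, 49.0 and 44.5 CPM in HSPA1A libraries, against 44.1, 48.8 and 49.1 CPM in control libraries. It did not show that order, and the groups overlapped (95% interval of the log2 fold change -0.12 to 0.20).

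In the thioredoxin system the repair enzyme gene Srxn1, which encodes sulfiredoxin, stood at 152, 256 and 137 CPM in HSPA1A libraries, against 171, 152 and 159 CPM in control libraries. HSPA1A replicate 2 was 1.6 times the control mean (log2 fold change 0.18 ± 0.19, SE; adjusted p = 0.823 by edgeR). Txnrd1, the cytosolic thioredoxin reductase gene, stood at 509, 591 and 493 CPM in HSPA1A libraries, against 516, 469 and 506 CPM in control libraries. Its HSPA1A replicate 2 was again the highest, and the groups overlapped (adjusted p = 0.762 by edgeR). Txn1 stood at 631, 614 and 622 CPM in HSPA1A libraries, against 572, 585 and 591 CPM in control libraries. All 3 HSPA1A libraries were above the controls, by a log2 fold change of only 0.10 ± 0.05 (SE, adjusted p = 0.612 by edgeR), and of all tested genes 7.30% had the HSPA1A libraries above all controls. Txnrd2 had a log2 fold change of 0.05 ± 0.08 (SE, adjusted p = 0.876 by edgeR).

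Among the peroxide-removing enzymes, Prdx1 and Gpx8 were set apart by a small difference without overlap, which was even across the HSPA1A libraries only for Gpx8. Prdx1 stood at 811, 877 and 806 CPM in HSPA1A libraries, against 726, 699.5 and 725 CPM in control libraries, with HSPA1A replicate 2 the highest. The groups did not overlap, at a log2 fold change of 0.21 ± 0.05 (SE), which did not pass the test over all libraries (adjusted p = 0.321 by edgeR). Gpx8, which encodes a peroxidase of the endoplasmic reticulum, stood at 120.1, 126 and 127 CPM in HSPA1A libraries, against 107, 102 and 107 CPM in control libraries. It averaged 124 ± 3.69 CPM with the HSPA1A plasmid, against 105 ± 2.6 CPM with the control plasmid (SD over 3 libraries each; log2 fold change 0.24 ± 0.05, SE; adjusted p = 0.155 by edgeR and 0.0385 by DESeq2), with the 3 HSPA1A libraries close together. Gpx8 overlaps Cdc20b on the other strand. Gpx4 stood at 717, 641 and 747 CPM in HSPA1A libraries, against 611, 702 and 668 CPM in control libraries, where replicate 2 was the lowest HSPA1A library and the groups overlapped (adjusted p = 0.779 by edgeR); 17.4% of its 150-base stretches also occur in the pseudogene Gpx4-ps2. The catalase gene Cat, named after its values were seen, stood at 148, 206 and 148 CPM in HSPA1A libraries, against 171, 148 and 159 CPM in control libraries, the same order of libraries as Hmox1. The other peroxiredoxins, Prdx2 to Prdx6, had log2 fold changes from -0.08 to 0.09.

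Of the superoxide dismutases, the abundant forms differed little between the groups. Sod1 stood at 234, 233 and 224 CPM in HSPA1A libraries, against 217, 223 and 224 CPM in control libraries. The lowest HSPA1A library, at 224.5 CPM, was just above the highest control, at 223.6 CPM, with a log2 fold change of 0.06 ± 0.05 (SE, 95% interval -0.05 to 0.17, adjusted p = 0.773 by edgeR). Sod2, the mitochondrial manganese enzyme gene, had a log2 fold change of -0.05 ± 0.05 (SE). Sod3 had 42, 37 and 47 reads in HSPA1A libraries and 55, 57 and 67 reads in control libraries, without overlap, and a log2 fold change of -0.44 ± 0.20 (SE, adjusted p = 0.585 by edgeR).

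The alpha-class glutathione S-transferases, which conjugate glutathione to electrophiles such as lipid aldehydes, had all 4 members in every HSPA1A library above every control library, an order seen in 7.30% of all tested genes. Gsta1, Gsta2 and Gsta4 lie on chromosome 9 and Gsta3 on chromosome 1. Gsta1 stood at 136, 205 and 142 CPM in HSPA1A libraries, against 99.6, 101 and 114 CPM in control libraries. Every HSPA1A library was above every control and replicate 2 was the highest, at a log2 fold change of 0.62 ± 0.13 (SE, 95% interval 0.32 to 0.92, adjusted p = 0.185 by edgeR). Gsta2 stood at 82.3, 113 and 77.9 CPM in HSPA1A libraries, against 68.2, 67.1 and 68.2 CPM in control libraries. Gsta3 stood at 12.4, 16.7 and 15.1 CPM in HSPA1A libraries, against 9.73, 9.62 and 10.8 CPM in control libraries. Their groups did not overlap either, with log2 fold changes of 0.42 ± 0.12 and 0.55 ± 0.12 (SE) and adjusted p-values of 0.374 and 0.155 by edgeR, while DESeq2 gave 0.0224 and 0.0130. Gsta4, whose enzyme favours the lipid aldehyde 4-hydroxynonenal, stood at 276, 358 and 265 CPM in HSPA1A libraries, against 250.1, 227 and 244 CPM in control libraries, with the same separation (log2 fold change 0.32 ± 0.10, SE; adjusted p = 0.455 by edgeR). The alternatives reused the same libraries, in which the groups did not overlap, so a positive sign was largely fixed in advance. The 4 log2 fold changes were positive in all 16 alternatives that were run for them. Without HSPA1A replicate 2 they were smaller, at 0.41 for Gsta1, 0.24 for Gsta2, 0.45 for Gsta3 and 0.17 for Gsta4. Gsta3 overlaps Gm28836 on the other strand.

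Reads of Gsta1 and Gsta2 cannot be fully separated. Of the 150-base stretches of Gsta1 transcripts, 68.4% also occur in Gm3776, Gsta2 or Gm10639, and of those of Gsta2 19.6% occur in Gsta1, Gm10639 or Gm3776. Summing the rows present in the table, Gsta1, Gsta2 and Gm10639, gave a log2 fold change of 0.55 and an adjusted p of 0.253 by edgeR. No stretch of Gsta3 or Gsta4 was shared in this way.

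For the other tested transferases the groups overlapped. Gsto1 stood at 637, 517 and 644 CPM in HSPA1A libraries, against 529.8, 567 and 538 CPM in control libraries. HSPA1A replicate 2 was the lowest of all libraries and replicates 1 and 3 the highest, the reverse of the order seen for Hmox1 (adjusted p = 0.67 by edgeR). Gsto2, its neighbour on chromosome 19, stood at 11.0, 14.96 and 13.5 CPM in HSPA1A libraries, against 11.3, 9.34 and 10.2 CPM in control libraries, with overlap between the groups (log2 fold change 0.36 ± 0.12, SE; adjusted p = 0.485 by edgeR). Gsto1 and Gsto2 both overlap Cfap43 on the other strand. The mu-class gene Gstm1 was highest in HSPA1A replicate 2 and lowest in HSPA1A replicates 1 and 3, at 61.2, 97.4 and 61.3 CPM in HSPA1A libraries, against 73.0, 61.7 and 63.5 CPM in control libraries, and was named after its values were seen. Gstp1, which shares 17.6% of its stretches with Gstp2 and Gstp-ps, had a log2 fold change of -0.02 ± 0.09 (SE).

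The genes for NADPH supply, which feeds glutathione and thioredoxin reductases, split. G6pdx, the entry enzyme gene of the pentose phosphate pathway, stood at 101, 105 and 99.9 CPM in HSPA1A libraries, against 108, 131 and 121 CPM in control libraries. All HSPA1A libraries lay below all controls, at a log2 fold change of -0.24 ± 0.07 (SE, adjusted p = 0.425 by edgeR). G6pdx overlaps Ikbkg on the other strand. Pgd, which encodes the next dehydrogenase of that pathway and was named after its values were seen, stood at 211, 340.3 and 196 CPM in HSPA1A libraries, against 253, 218 and 233 CPM in control libraries, with HSPA1A replicate 2 at 1.45 times the control mean. Taldo1, a transaldolase gene of the non-oxidative branch, stood at 166, 174 and 149 CPM in HSPA1A libraries, against 165, 164 and 163 CPM in control libraries (log2 fold change -0.01 ± 0.06, SE). The malic enzyme gene Me1 and the transketolase gene Tkt were also highest in HSPA1A replicate 2 and lowest in HSPA1A replicates 1 and 3. In all, 9 of the 45 genes (20.0%) were highest in HSPA1A replicate 2 and lowest in HSPA1A replicates 1 and 3. That order held in 7.17% of all tested genes. The 9 were Hmox1, Gclm, Gsr, Cat, Gstm1, Gstm2, Pgd, Me1 and Tkt. Some margins were very small. Cat had 147.82 and 147.76 CPM in HSPA1A replicates 1 and 3, against 147.97 CPM in control replicate 2. Gstm2 had 38.98 and 38.45 CPM there, against 39.05 CPM in control replicate 3. Its HSPA1A replicate 2 stood at 43.02 CPM, against 42.79 CPM in control replicate 2.

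**Figure D3:**
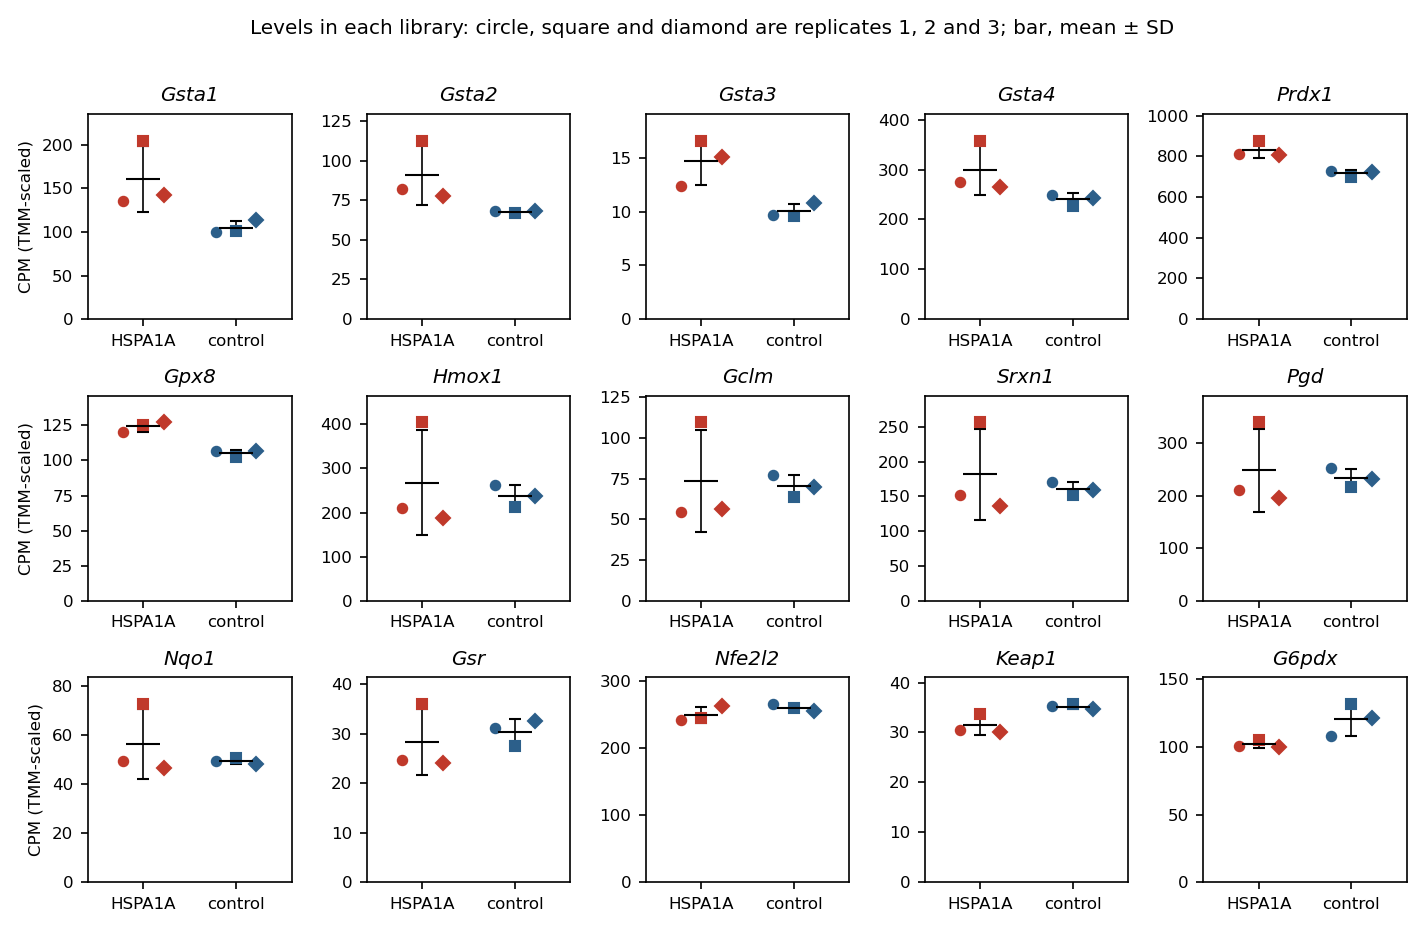
CPM (TMM-scaled, axes from 0) of 15 genes in the 3 HSPA1A libraries (red) and the 3 control libraries (blue), with circle, square and diamond for replicates 1, 2 and 3 and bars for mean ± SD. Gsta1 to Gsta4, Prdx1 and Gpx8 show no overlap between the groups, while for Hmox1, Gclm, Srxn1 and Pgd the HSPA1A replicate 2 square stands above all other points.

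Counted over the 45 genes, 8 had every HSPA1A library above every control and 3 had every HSPA1A library below, together 24.4%, beside 14.5% of all tested genes. The 8 were Gsta1, Gsta2, Gsta3, Gsta4, Prdx1, Gpx8, Txn1 and Sod1, and the 3 were Keap1, G6pdx and Sod3. These counts are for CPM scaled by TMM, and FPKM changed them in both directions. In FPKM every HSPA1A library was below every control for Nfe2l2 and Sod2, which overlapped in CPM. Nfe2l2 had 87.25, 92.6 and 94.49 FPKM in HSPA1A libraries, against 100.31, 99.99 and 97.86 FPKM in control libraries. Sod2 had 14.33, 14.46 and 14.47 FPKM in HSPA1A libraries, against 15.02, 15.47 and 16.04 FPKM in control libraries. The groups overlapped in FPKM for Txn1 and Sod1. Txn1 had 538, 548 and 528 FPKM in HSPA1A libraries, against 509, 531 and 533 FPKM in control libraries. Sod1 had 324, 339 and 310 FPKM in HSPA1A libraries, against 314, 329 and 328 FPKM in control libraries.

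HSPA1A replicate 2 was singled out from these same data because it stood apart, and leaving it out kept only HSPA1A replicates 1 and 3. Genes lowest in those libraries, such as Gclm, Gsr, Hmox1 and Pgd, were then bound to have a lower HSPA1A mean. Genes with those libraries above every control, such as Gsta1 to Gsta4, Gsto1, Prdx1 and Gpx8, were likewise bound to have a higher HSPA1A mean. The SE of Gclm fell from 0.22 with all 6 libraries to 0.067. With these limits, the fit was also read without HSPA1A replicate 2. Then 7 of the 45 genes were called higher, Gsta1, Gsta2, Gsta3, Gsta4, Gsto1, Prdx1 and Gpx8, and 6 lower, Gclm, Gsr, Hmox1, Pgd, G6pdx and Keap1. Together they made up 28.9% of the 45, where 5.27% of all tested genes were called higher and 4.94% lower in the same fit, 10.2% in all. Gsta1 was higher at a log2 fold change of 0.41 (adjusted p = 0.000554) and Gsta3 at 0.45 (adjusted p = 0.0136), both by edgeR. Gclm was lower at a log2 fold change of -0.35 (adjusted p = 0.00468), Gsr at -0.31 (adjusted p = 0.0144) and Hmox1 at -0.25 (adjusted p = 0.0358), all by edgeR. For Gclm, Hmox1 and Pgd the sign was the opposite of that over all 6 libraries, and 11 of the 45 genes changed sign in this way. Srxn1 (log2 fold change -0.15) and Nqo1 (-0.04) changed sign without passing the test. Leaving out HSPA1A replicate 1 or 3 called 0 of the 45, beside 0.0994% and 0.107% of all genes in either direction. Leaving out control replicate 1, 2 or 3 also called 0, beside 0.108%, 0.0997% and 0.077%.

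**Figure D4:**
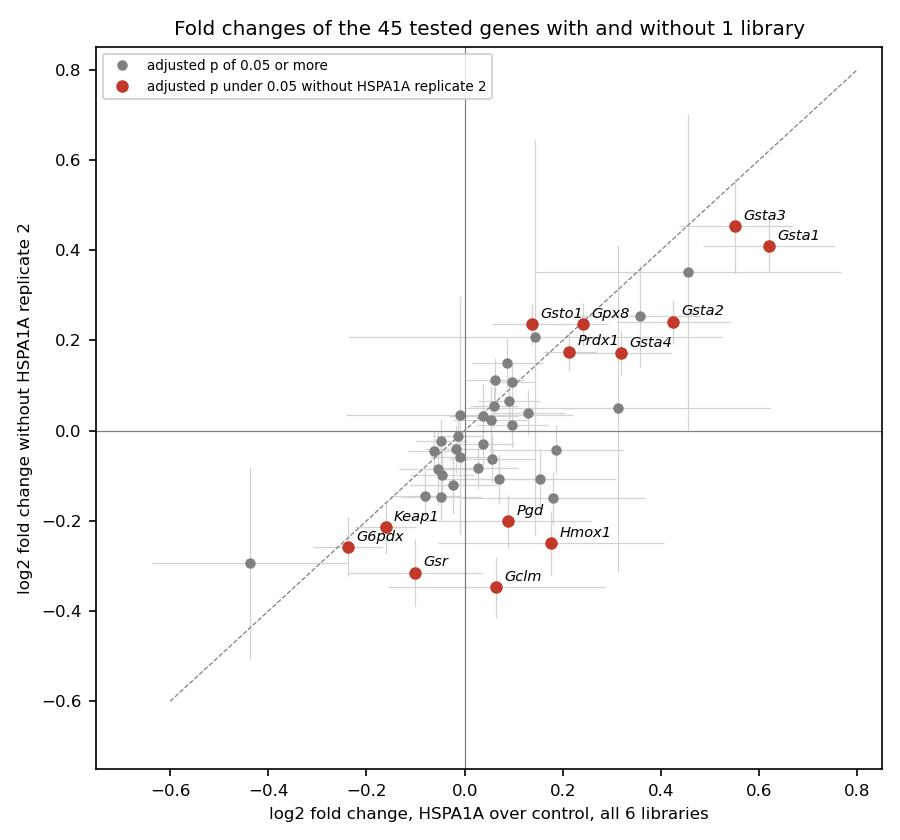
Log2 fold change of HSPA1A over control for the 45 tested genes with all 6 libraries (x axis) and without HSPA1A replicate 2 (y axis), with SE bars and the line of equality dashed. The 13 genes called without that library are red: 7 lie above 0 on the y axis, led by Gsta3 and Gsta1, and Gclm, Hmox1 and Pgd lie right of 0 on the x axis but below 0 on the y axis.

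Other genes of the pathway were read from 6 lists with 88 names, of which 72 were tested. In edgeR 0 were called in either direction and 7 fell under an unadjusted p of 0.05, beside 8.59% of all tested genes. DESeq2 called 1 higher and 1 lower, beside 0.24% and 0.341% of all genes it tested, and limma-voom called 0, beside 0.164% in either direction. The gene with the smallest p among the NRF2 partners and repressors was Nfe2l1, which encodes the NRF2 relative that drives proteasome genes, at 386, 402 and 387 CPM in HSPA1A libraries, against 474, 452 and 462 CPM in control libraries. The groups did not overlap (log2 fold change -0.24 ± 0.05, SE; adjusted p = 0.146 by edgeR). Among 24 tested detoxification genes and further NRF2 targets it was the efflux pump gene Abcc4, at 103, 110.1 and 108 CPM in HSPA1A libraries, against 92.8, 88.7 and 88.5 CPM in control libraries. Here the HSPA1A libraries were above all controls (log2 fold change 0.25 ± 0.05, SE; adjusted p = 0.15 by edgeR), and the list's median was 0.14. Of the 24, 17 were highest in HSPA1A replicate 2, beside 22.3% of all tested genes. No other list had such a share. It was 3 of 10 NRF2 partners and repressors and 3 of 11 genes of cystine import and glutathione turnover. It was 3 of 12 genes of glutaredoxin, thioredoxin and methionine sulfoxide reduction, 4 of 12 other NADPH sources and 0 of 3 superoxide and peroxide producers. Over all lists it was 30 of 72. The smallest p in the remaining lists belonged to Idh2, a mitochondrial NADPH source (log2 fold change -0.23 ± 0.08, adjusted p = 0.477), to the glutaredoxin gene Glrx (-0.25 ± 0.11, adjusted p = 0.553), to Chac2, a glutathione-degrading enzyme gene (0.26 ± 0.12, adjusted p = 0.595), and to the xanthine dehydrogenase gene Xdh (-0.17 ± 0.09, adjusted p = 0.632), all by edgeR with SE.

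The cystine importer gene Slc7a11, which supplies the substrate of glutathione synthesis and was named after its values were seen, stood at 60.7, 91.5 and 66.2 CPM in HSPA1A libraries, against 90.5, 79.2 and 81.9 CPM in control libraries. HSPA1A replicates 1 and 3 were again below every control, and replicate 2 was the highest library. Without HSPA1A replicate 2, the library singled out above, 6 of the 72 list genes were called higher and 8 lower. In that fit 5.27% of all tested genes were called higher and 4.94% lower. Slc7a11 (log2 fold change -0.40, adjusted p = 0.00111), Idh1 (-0.33, adjusted p = 0.00191) and Glrx (-0.39, adjusted p = 0.00837) were among the lower and Abcc4 (0.23, adjusted p = 0.00685) among the higher ones, by edgeR. Of 9 superoxide and peroxide producers, 6 averaged under 1 CPM. The oxidase gene Nox4 was at 4.27, 3.43 and 3.56 CPM in HSPA1A libraries, against 3.91, 3.41 and 3.56 CPM in control libraries, with overlap between the groups.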

How the data were processed

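The authors deposited whole read counts per gene and FPKM, which they rounded to 2 decimals, for 6 libraries, as the file names in the labels and the values show. Per the submitters' processing notes the tools included bcl2fastq, TopHat2 and edgeR, with GRCm38 as the genome; neither their versions nor their roles are stated. How reads were counted, whether by strand and on which annotation, is also not stated. Libraries came from a stranded kit, per the labels' protocols.

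Counts were scaled by TMM and filtered by filterByExpr (minimum count 10, minimum total count 15) in edgeR 4.0.16 under R 4.3.3, which left 12827 genes. HSPA1A was compared with control by the quasi-likelihood test with Benjamini-Hochberg adjustment over all of them, at a threshold of 0.05 and without covariates. SE values come from the test statistic. On simulated counts for this comparison over 12827 genes, the fit called 79.3% of genes changed by 1.5-fold and 94.0% changed by 2-fold, and 0.0713% of unchanged genes; the simulation had no library that stood apart.

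Alternatives were other scalings, DESeq2 1.42.0, limma-voom (limma 3.58.1), other filters, a replicate block, each library left out, and limma-trend on log2 of the FPKM plus a pseudocount of 1 or 0.1. The sum over Gsta1-like genes was added after seeing the data. The genes and lists were chosen with earlier results of these data known. Values in every library were given for 8 fixed genes, genes at an unadjusted p under 0.05, and those with the highest level or largest change in each class. Coordinates and overlaps came from GENCODE M21 on GRCm38, and shared stretches are exact 150-base matches among its transcripts. Figures were drawn with matplotlib 3.10.9.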

Additional observations from a re-analysis of the deposited data

How the results depend on the processing

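Of the 45 tested genes, DESeq2 called 3 higher, and without a filter edgeR called 5 higher (Gsta1, Gsta2, Gsta3, Gsta4 and Gpx8) and 1 lower (G6pdx). The unfiltered fit took little account of a gene's own spread between replicates. Leaving out 1 library gave from 0 to 7 higher and from 0 to 6 lower, the highest without HSPA1A replicate 2, and medians from -0.024 to 0.098. With 1 library left out, the log2 fold change of Gclm ran from -0.35 to 0.24 and that of Hmox1 from -0.25 to 0.38, both negative without HSPA1A replicate 2. On the FPKM scale with a pseudocount of 1 the median was -0.0045, beside -0.041 for all genes, and the cause was not tested. Over all genes, counts higher and lower, 3 and 20 in edgeR, were 26 and 37 by DESeq2 and 94 and 111 with no filter. Those higher were 1 with DESeq2 size factors, library totals or the 5 CPM filter, and 0 in each limma-trend fit. Leaving out 1 library gave from 0 to 683 higher and from 10 to 640 lower, the highest without HSPA1A replicate 2. Other pathway genes were called higher and lower in numbers of 1 and 1 by DESeq2, 3 and 2 with no filter, and from 0 to 6 and from 0 to 8 with 1 library left out. With the replicate number as a block, 0 of the 45 were called, with 3 genes higher and 13 lower in all. Same-numbered libraries shared only a number: their deviations correlated at -0.10, -0.0015 and 0.085.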
